A study of Mus musculus with 12 samples.

Results

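Kupffer cells are the resident macrophages of the liver, and the 10 genes described here are their markers: Clec4f, Vsig4, Timd4, Marco, Cd163, Cd5l, Csf1r, Adgre1, Clec1b and Folr2. The genes were chosen by name, and all 10 were measured, as 17 transcripts of the 29883 protein-coding transcripts and as 10 of the 14188 genes in the table. RNA of whole liver was sequenced from 12 male mice with hepatic fibrosis. The strain is labelled C57BL/8, whereas the methods of the study name C57BL/6J mice that were 6 weeks old at the start. All mice of both groups were injected with carbon tetrachloride (CCl4), a hepatotoxin, into the peritoneum, 2 times a week, and their livers were taken in the eighth week. The 6 mice of the control group were given water by gavage every day, and the 6 mice of the PZH group were given Pien Tze Huang (PZH), a traditional Chinese medicine, by gavage every day. No mice without CCl4 were analysed here, so every difference is between PZH with CCl4 and CCl4 alone.

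Kupffer cells sit in the sinusoids, where they take up bacteria, dying cells and worn-out red cells from portal and arterial blood. Their identity is held by ligands from neighbouring endothelial cells, stellate cells and hepatocytes, and by Csf1 receptor signalling. During toxic injury resident cells can be lost and monocytes from the blood can enter and take on part of the same programme, so that some markers (Clec4f, Timd4) are read as signs of residence and others (Adgre1, Csf1r) are shared by most macrophages. The values are FPKM, the fragments of a transcript divided by its length and by the mapped depth of the library, and the FPKM of a gene is the sum over its transcripts. A gene was called higher or lower when limma on log2(FPKM + 1), fitted over all genes, gave a Benjamini-Hochberg adjusted p under 0.05. A log2 fold change is PZH minus control on that scale, which understates the change of low genes. In whole liver, fewer cells of a type and less RNA per cell cannot be told apart.

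RefSeq promoters were matched for 8 of the 10 genes (9 promoters, build GRCm38.p6), and 3 are printed, for the marker that fell, for a resident marker that rose and for the resident marker that was not called. Each is the stretch of 250 bases before the RefSeq start, 5′ to 3′ on the strand of the gene, with motif matches in capitals. Marco lies on the minus strand at chr1:120505025-120505274, Vsig4 on the minus strand at chrX:96293439-96293688 and Timd4 on the plus strand at chr11:46810549-46810798. The motifs, searched on both strands and chosen with these sequences in view, were the ETS core GGAAGT, which the macrophage factor PU.1 can bind, an ETS-IRF composite, GGAA and TGAAA with 1 base of any kind between them, which can contain the first, and the AP-1 site TGANTCA.
Marco: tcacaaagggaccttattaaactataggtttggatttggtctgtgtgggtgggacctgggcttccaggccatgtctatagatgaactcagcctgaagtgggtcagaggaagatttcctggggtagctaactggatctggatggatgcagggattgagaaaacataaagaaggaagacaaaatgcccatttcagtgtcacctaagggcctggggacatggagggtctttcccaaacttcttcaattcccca
Vsig4: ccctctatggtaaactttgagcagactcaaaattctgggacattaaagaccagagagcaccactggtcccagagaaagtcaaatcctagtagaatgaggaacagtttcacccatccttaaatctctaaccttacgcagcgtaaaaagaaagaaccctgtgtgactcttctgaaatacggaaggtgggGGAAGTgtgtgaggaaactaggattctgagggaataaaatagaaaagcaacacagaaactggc
Timd4: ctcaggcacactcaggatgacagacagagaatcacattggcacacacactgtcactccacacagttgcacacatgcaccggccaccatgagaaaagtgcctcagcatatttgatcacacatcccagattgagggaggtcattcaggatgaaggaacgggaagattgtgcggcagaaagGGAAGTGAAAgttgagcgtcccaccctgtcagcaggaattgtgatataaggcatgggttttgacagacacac
The ETS core was found in 4 of the 9 promoters, 1 each of Clec4f, Vsig4, Timd4 and Folr2, in a background of 19.7% of all 32851 promoters of this length. The Vsig4 match stood 63 to 58 bases before the start and the Timd4 match 72 to 67 bases before it. The Clec4f match, 33 to 28 bases before the RefSeq start, lay inside the first exon of the transcript in the table, which begins further upstream. The composite motif was found in Timd4 and Folr2, against 0.594% of all promoters, and an AP-1 site in another start of Folr2, against 6.75%. In Folr2 the ETS core and the composite lay in the window at chr7:101857191-101857440, far upstream of the transcripts in the table. The window at chr7:101845332-101845581, next to the start of those transcripts, held the AP-1 site and neither of the other motifs. No motif of these letters was found in the windows of Marco, Cd5l, Cd163 and Clec1b. These matches are letters in a window, and no binding was measured.

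Several surface receptors of Kupffer cells were more abundant in the PZH group, and the scavenger receptor Marco was less abundant by a larger amount. Clec4f, Vsig4 and Csf1r rose, by 0.60, 0.57 and 0.38 on the log2 scale, and Marco fell by 2.21. The remaining 6 markers (Adgre1, Cd5l, Clec1b, Timd4, Cd163 and Folr2) were not called. The count of 3 genes higher of 10 stood beside a background of 12.7% of all genes called higher, and the count of 1 gene lower beside 32.1% called lower (44.8% in either direction). The groups had no common range for 2 members that were higher, Clec4f and Vsig4, and for 1 that was lower, Marco, against 6.46% and 17.9% of all genes. With the call of the study, a P under 0.05 and a log2 fold change of at least 1 in size, Marco alone among the members was called, lower, against 1.52% of all genes called higher and 2.5% lower.

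**Figure D1:**
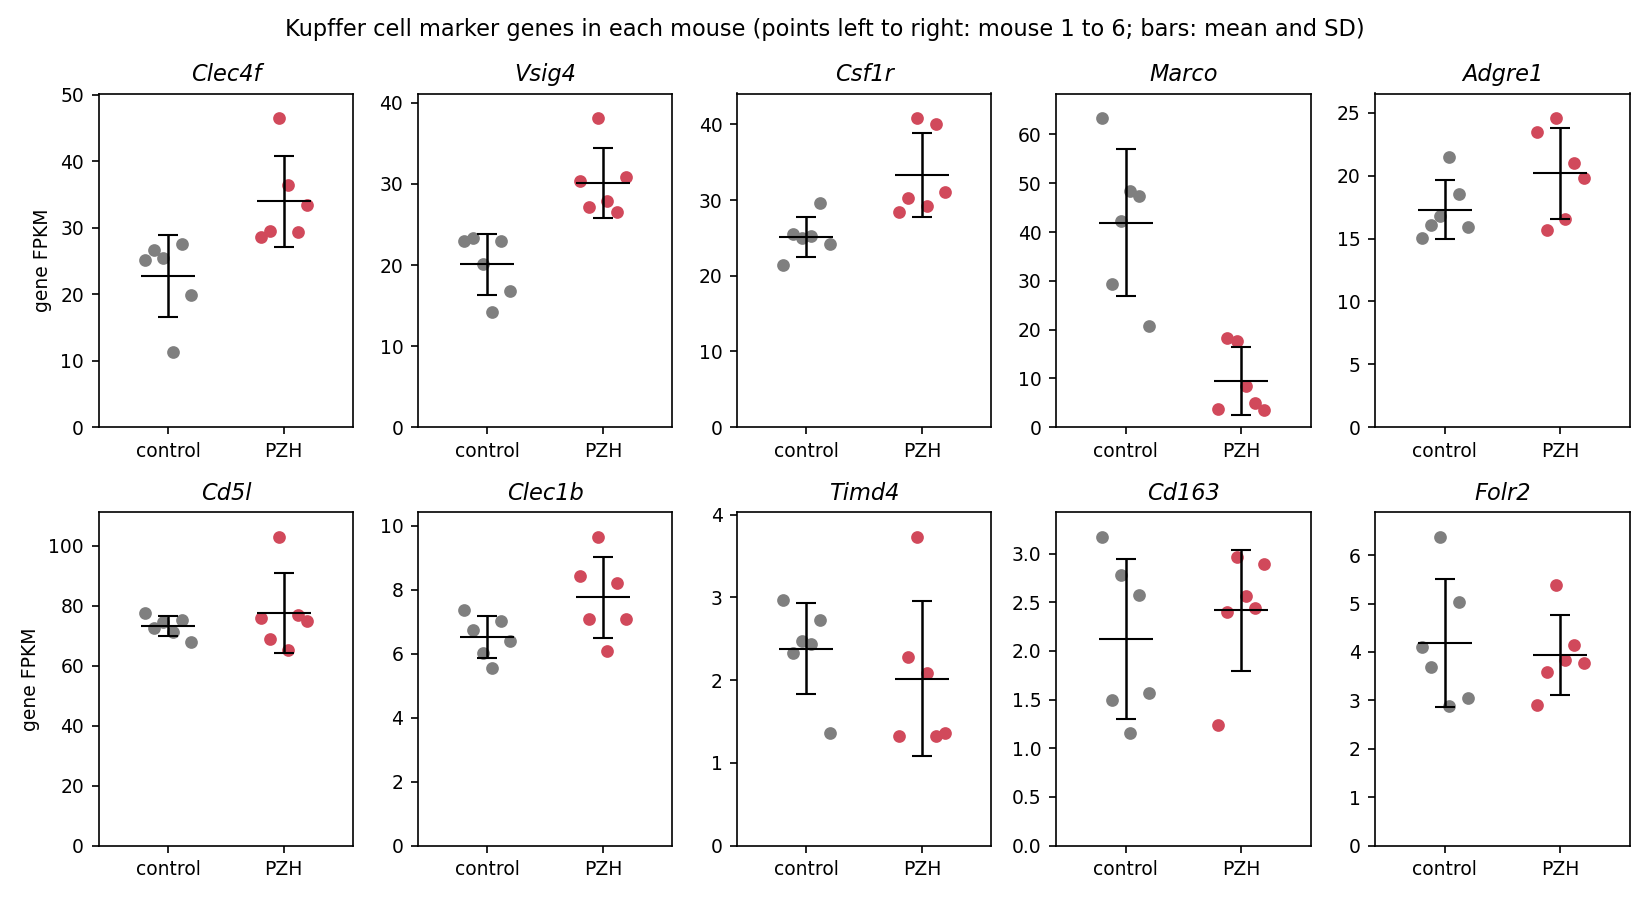
FPKM of the 10 Kupffer cell marker genes (vertical axes from 0, a scale for each gene) in the 6 control mice (grey) and the 6 PZH mice (red), with the mean and SD as black bars. Clec4f and Vsig4 are higher and Marco is lower in every PZH mouse than in any control mouse, and PZH mouse 3 is the highest red point in 9 of the 10 panels.

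Clec4f is a galactose-binding C-type lectin that in mice is made almost only by Kupffer cells. Its FPKM in the PZH group ranged from 28.6 to 46.5 with a median of 31.5, and in the control group from 11.4 to 27.6 with a median of 25.4. The lowest PZH mouse was above the highest control mouse, though by little, and control mouse 4 stood below all other mice. The means were 34.0 ± 6.82 and 22.7 ± 6.16 (SD, n = 6), a log2 fold change of 0.60 (SE 0.20, 95% interval 0.17 to 1.02, limma adjusted p = 0.0251). Without PZH mouse 3 the change was 0.50 with an adjusted p of 0.0548, so that the call rested on that mouse.

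Vsig4 is the complement receptor with which Kupffer cells catch C3-coated bacteria from the blood. In the PZH group it ranged from 26.5 to 38.1 FPKM with a median of 29.1, and in the control group from 14.2 to 23.3 with a median of 21.6. The groups were apart by a wider gap than for Clec4f, and PZH mouse 3 was again the highest. The log2 fold change was 0.57 (SE 0.13, 95% interval 0.30 to 0.85, limma adjusted p = 0.0029), and the adjusted p stayed between 0.000891 and 0.00882 over the 20 alternative settings and omissions of 1 mouse that were run.

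Csf1r, the receptor for Csf1 and Il34 on which macrophages depend for survival, ranged from 28.4 to 40.8 FPKM in the PZH group (median 30.7) and from 21.5 to 29.6 in the control group (median 25.2). The groups overlapped, and 4 of 6 PZH mice were above the highest control mouse. Csf1r rose by 0.38 (SE 0.11, limma adjusted p = 0.0108), a smaller change than those of Clec4f and Vsig4, with means of 33.3 ± 5.60 and 25.2 ± 2.64 FPKM (SD, n = 6). Both of its ligands fell in the same livers. Csf1 was 3.41 ± 0.737 against 5.16 ± 1.10 FPKM, and Il34 0.807 ± 0.456 against 2.30 ± 0.459, with log2 fold changes of −0.48 and −0.90 (limma adjusted p = 0.0111 and 0.000543).

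Marco is a class A scavenger receptor that binds bacteria and particles. In the control mice it ranged from 20.6 to 63.3 FPKM with a median of 44.8, and in the PZH mice from 3.62 to 18.3 with a median of 6.66. All PZH mice were below all control mice, and within the PZH group 2 mice (PZH 2 with 18.3 and PZH 3 with 17.7) stood apart from 4 mice of at most 8.46. The means were 9.46 ± 6.88 and 41.9 ± 15.1 FPKM (SD, n = 6), a log2 fold change of −2.21 (SE 0.40, 95% interval −3.08 to −1.35, limma adjusted p = 0.000702), which is 4.64 times lower on the fitted scale. Marco also varied most among the members within the PZH group, with a coefficient of variation of 72.8% (36.1% in the control group). The change lay between −2.44 and −2.03 whichever mouse was left out.

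Cd163 takes up complexes of haemoglobin and haptoglobin. It was low, from 1.24 to 2.97 FPKM in the PZH group (median 2.50) and from 1.16 to 3.17 in the control group (median 2.07), and PZH mouse 1 stood far below the other PZH mice. The ranges lay on top of each other, and the log2 fold change was 0.15 with a limma adjusted p of 0.539. Haptoglobin (Hp), made by hepatocytes, fell from 1924 ± 1303 to 727 ± 165 FPKM, by 1.21 on the log2 scale (limma adjusted p = 0.00883). Hmox1, the haem-degrading enzyme of macrophages that recycle red cells, fell by 1.07 (53.0 ± 10.8 to 24.6 ± 3.93 FPKM, limma adjusted p = 0.000111).

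Cd5l, a secreted protein of tissue macrophages that was named for its inhibition of apoptosis, was the most abundant of the 10 genes in both groups. It ranged from 65.4 to 103 FPKM in the PZH group (median 75.5) and from 68.0 to 77.7 in the control group (median 73.6). The medians nearly coincided and the control mice differed little among themselves (coefficient of variation 4.59%, against 17.2% in the PZH group). The log2 fold change was 0.07 (95% interval −0.14 to 0.27, limma adjusted p = 0.604), and it was −0.02 without PZH mouse 3, whose 103 FPKM made up the upper end of the range.

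Timd4 binds phosphatidylserine on dying cells and is carried by long-resident Kupffer cells rather than by recent monocyte-derived ones. Its FPKM ranged from 1.32 to 3.73 in the PZH group (median 1.72) and from 1.36 to 2.97 in the control group (median 2.45). In the PZH group 3 mice stood at or just below the lowest control mouse and 1 was above the highest. The log2 fold change was −0.20 (95% interval −0.59 to 0.19, limma adjusted p = 0.402), so Timd4 did not pass the test. Its interval overlaps that of Clec4f, and the difference between these changes was not tested.

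Adgre1, the F4/80 antigen found on most mouse macrophages, ranged from 15.6 to 24.6 FPKM in the PZH group (median 20.4) and from 15.0 to 21.5 in the control group (median 16.4). The ranges overlapped over most of their length. The log2 fold change was 0.20 (SE 0.12, 95% interval −0.05 to 0.46, limma adjusted p = 0.187).

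Clec1b is a C-type lectin that binds podoplanin and is also carried by platelets. It ranged from 6.10 to 9.66 FPKM in the PZH group (median 7.66) and from 5.57 to 7.37 in the control group (median 6.57), and 3 of 6 PZH mice were above the highest control mouse. Its log2 fold change of 0.21 did not pass the test (limma adjusted p = 0.0953), but it did without PZH mouse 4 (0.27, adjusted p = 0.0336). Of 6 genes measured from a list of platelet and megakaryocyte markers, 1 was called higher, F5, at 130 ± 9.20 against 106 ± 7.03 FPKM (limma adjusted p = 0.00364). F5 stood far above the other genes of that list in level, and which liver cells made it was not measured. The 1 called lower was Pf4, the platelet chemokine, at 4.29 ± 1.25 against 6.39 ± 0.893 FPKM (limma adjusted p = 0.0109), a call lost under median-ratio scaling. Apart from F5, the genes of that list had log2 fold changes between −0.51 (Pf4) and −0.03 (Gp1bb). Of the 6 genes 4 had a mean under 1 FPKM, where this scale shows little change. The part of platelets in the Clec1b values was not tested.

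Folr2, a folate receptor of tissue-resident macrophages, ranged from 2.91 to 5.39 FPKM in the PZH group (median 3.80) and from 2.89 to 6.38 in the control group (median 3.90). The ranges coincided, and the log2 fold change of −0.05 (95% interval −0.39 to 0.29, limma adjusted p = 0.814) was 0.10 under the scaling described next, so its sign has no fixed direction.

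FPKM are divided by the mapped depth of a library, so a larger share for some genes lowers the values of others. The FPKM sum of a mouse was not fixed, at 326032 to 370412 under PZH and 325275 to 334168 in the control mice. The composition of the libraries differed between the groups. Albumin (Alb) took 10.2 to 12.7% of the FPKM sum under PZH and 5.54 to 8.86% in the control mice, and the median log2 fold change of all genes was −0.11. Relative to that median the members stood at 0.71 (Clec4f), 0.68 (Vsig4), 0.49 (Csf1r), 0.32 (Clec1b), 0.31 (Adgre1), 0.26 (Cd163), 0.18 (Cd5l), 0.06 (Folr2), −0.09 (Timd4) and −2.10 (Marco), and the median of the 10 genes was 0.17 before subtraction. With a median-ratio scale factor for each mouse, which centres the genes, 6 members were called higher and 1 lower. Cd5l (0.26, adjusted p = 0.0475), Adgre1 (0.38, adjusted p = 0.0235) and Clec1b (0.38, adjusted p = 0.00821) were then added to Clec4f (0.78), Vsig4 (0.76) and Csf1r (0.57), while Marco remained lower (−2.04). Over all genes the same scaling moved the calls from 1798 higher and 4560 lower (28.3% higher) to 2807 higher and 2739 lower (50.6% higher). Thus the direction of the 4 called members held under both scalings, and the number of called members depended on the scaling.

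**Figure D2:**
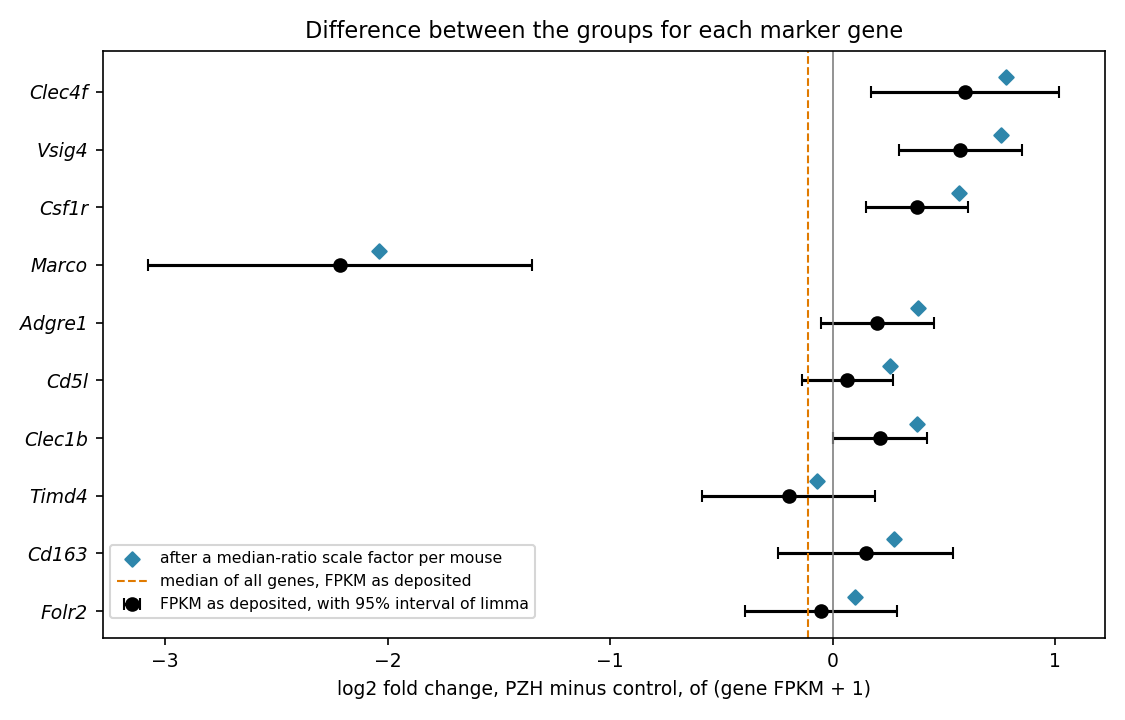
Log2 fold change of each marker gene, PZH minus control, on log2(FPKM + 1). Black points with bars are the values from the deposited FPKM with the 95% interval of limma, blue diamonds the values after a median-ratio scale factor per mouse, and the dashed line is the median of all genes. Marco lies at −2.21, apart from the other 9 genes, which lie between −0.20 and 0.60.

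The order of the members by mean FPKM, which is a value per length and can be compared between genes, changed mostly through Marco. In the control group Cd5l was followed by Marco, Csf1r, Clec4f, Vsig4, Adgre1, Clec1b, Folr2, Timd4 and Cd163. The ranges of neighbours in that order overlapped except between Cd5l and Marco and between Adgre1 and Clec1b. In the PZH group Cd5l was followed by Clec4f, Csf1r, Vsig4, Adgre1, Marco, Clec1b, Folr2, Cd163 and Timd4, with gaps below Cd5l, below Vsig4 and below Clec1b only. Marco thus went from the second place to the sixth, while the other members kept their neighbours or exchanged places within overlapping ranges.

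At the level of transcripts 4 of the 17 were called, 2 higher and 2 lower, beside 5.73% of all transcripts called higher and 14% lower. Only 4 of the genes (Cd5l, Clec4f, Timd4 and Vsig4) were represented by 1 transcript. The main Marco transcript, ENSMUST00000027639, covers 17 exons on the minus strand of chromosome 1 (GRCm38, 120474538 to 120505024) and fell by 2.19 on the log2 scale (limma adjusted p = 0.00296). The short Marco transcript ENSMUST00000186432, of 5 exons, was listed at 0 in 5 of 6 PZH mice and was above 0 in all control mice, at 0.819 ± 0.533 FPKM (limma adjusted p = 0.00684). It made up 1.95% of Marco FPKM in the control group on average and 0.162% in the PZH group, so most of the fall was in the main transcript.

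Csf1r was carried by ENSMUST00000115268 (21 exons, plus strand of chromosome 18, 61105852 to 61132149), which held 94.9% of its FPKM under PZH and 95.5% in the control group and rose by 0.37 (limma adjusted p = 0.0242). Vsig4, as ENSMUST00000050707 (7 exons, minus strand of chromosome X, 96247203 to 96293438), was called higher among the transcripts too (limma adjusted p = 0.00939). Clec4f, as ENSMUST00000014686 (7 exons, minus strand of chromosome 6, 83644542 to 83656187), has the same values as its gene but did not pass the adjustment over 29883 transcripts (limma adjusted p = 0.0602). Adgre1 was divided between ENSMUST00000086763, with 57.3 ± 5.57% of its FPKM under PZH and 63.8 ± 11.5% in the control group, and ENSMUST00000004850, with 40.7 ± 4.66% and 35.7 ± 11.4%, and neither transcript was called. In Cd163 the share of ENSMUST00000112541 was 70.9 ± 19.1% and 80.1 ± 8.96%. These shares rest on how reads of common exons were divided between transcripts of 1 gene and are uncertain to that extent.

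The mice of a group also differed in all members together. PZH mouse 3 was the highest of its group in 9 of 10 members, with Marco as the exception, and was among the 2 highest in all 10. It was above the mean of its group by 0.24 (Cd163) to 1.10 (Marco) on the log2 scale. In the control group mouse 1 was the highest in 5 members (Marco, Timd4, Cd5l, Cd163 and Clec1b), and mouse 4 was the lowest in 5 (Clec4f, Vsig4, Cd163, Clec1b and Folr2) and the highest in Adgre1. PZH mouse 3 also had the highest summed FPKM of 7 neutrophil genes, 142 against 13.4 to 23.2 in the rest of its group, and control mice had 19.1 to 64.6, with mouse 4 the highest. The part of these cells in the member values was not tested, and the change without PZH mouse 3 is given above for Clec4f and Cd5l, the members it decided.

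**Figure D3:**
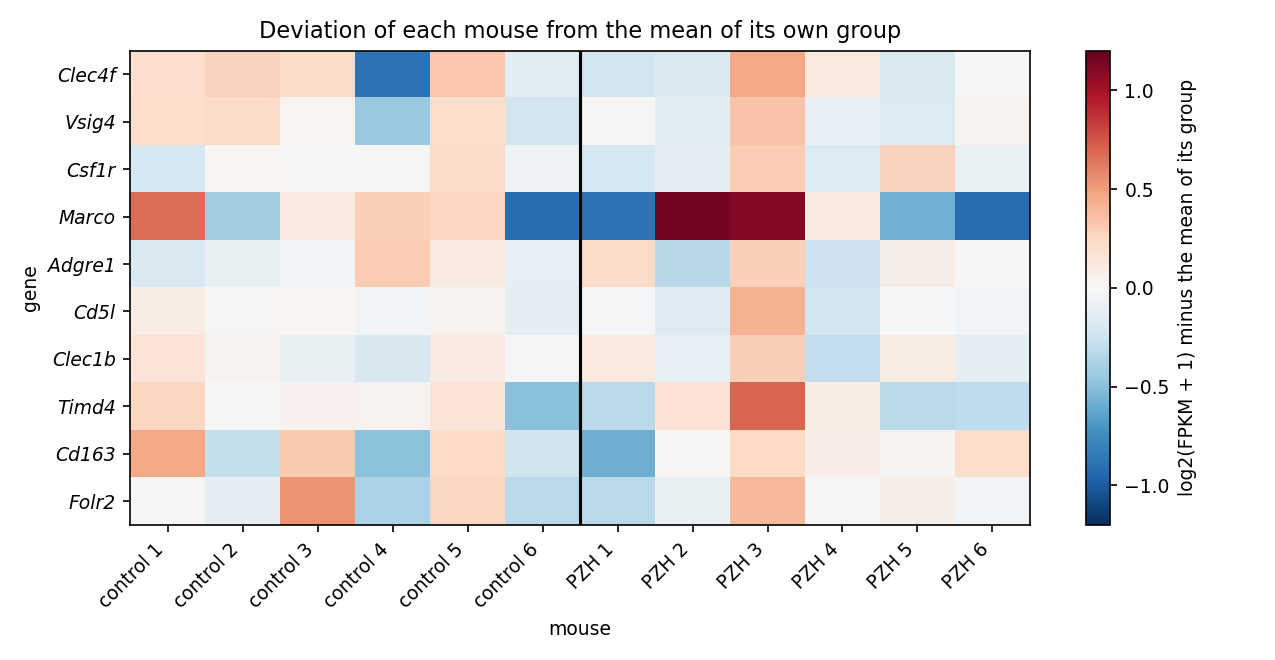
Difference of each mouse from the mean of its own group in log2(FPKM + 1), for the 10 marker genes (rows) in 6 control and 6 PZH mice (columns), from below the mean (blue) to above it (red). The column of PZH mouse 3 is red in all rows, control mouse 4 is blue for Clec4f and Vsig4 and red for Adgre1, and the strongest colours are in the row of Marco.

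Taking out the group means, the deviation of Cd5l over the 12 mice had the highest correlation with the mean of the other 9 members (r = 0.83), followed by Folr2 (0.74), Vsig4 (0.72), Timd4 (0.70), Clec4f (0.64) and Clec1b (0.61). Cd163 (0.52), Csf1r (0.51) and Marco (0.43) were less like the rest, and Adgre1 least (0.14). These are descriptions over 12 mice that share the same libraries, and PZH mouse 3 bears on each of them. Among 10938 other genes of a mean FPKM of at least 1, those most like the mean of the 10 markers were Dvl2 (r = 0.88), Cldn5 (0.84), Slc25a36 (0.83), Mia2 (0.80), Egr1 (0.79), Chp2 (0.79), Lair1 (0.79), Zfp608 (0.78), Crlf2 (0.78) and Tmem26 (0.78). These correlations are the highest of all genes compared, and they were not tested.

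The levels of resident markers were also compared within the pan-macrophage marker Adgre1 of the same mouse, as a difference of log2(FPKM + 1). Clec4f minus Adgre1 ranged from 0.27 to 1.09 under PZH and from −0.86 to 0.71 in the control mice. Apart from control mouse 4, the ranges overlapped between 0.30 and 0.71, and 4 of 6 PZH mice were above all control mice. The means were 0.72 ± 0.30 and 0.33 ± 0.60 (SD, n = 6), a difference of 0.39 that did not pass a two-sided exact permutation test (p = 0.160, the smallest possible being 0.0022). Timd4 minus Adgre1 ranged from −3.40 to −2.34 under PZH and from −2.85 to −2.01 in the control mice, and 3 PZH mice (1, 5 and 6) were below all control mice. The means were −2.84 ± 0.47 and −2.45 ± 0.29, a difference of −0.40 (exact permutation p = 0.0974, n = 6). With Csf1r in place of Adgre1 the difference of Timd4 was −0.58 (exact permutation p = 0.0152) and that of Clec4f 0.21 (exact permutation p = 0.400), where Csf1r itself had risen.

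**Figure D4:**
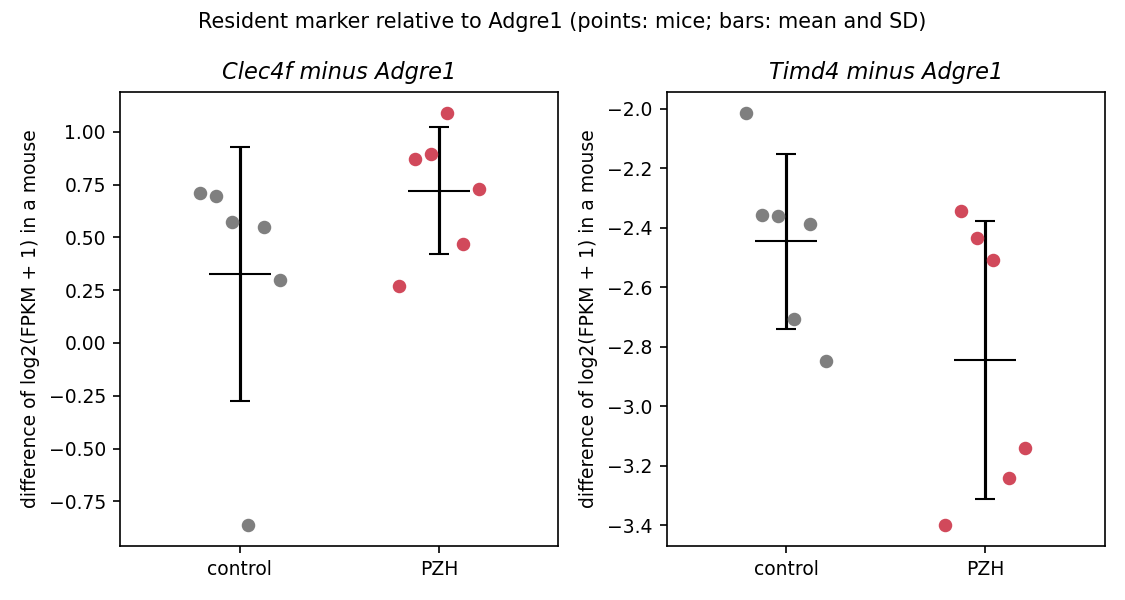
Clec4f minus Adgre1 (left) and Timd4 minus Adgre1 (right) in each mouse, as differences of log2(FPKM + 1), with mean and SD as black bars and the 6 control mice in grey and 6 PZH mice in red. The groups overlap in both panels, the means lie 0.39 higher (Clec4f) and 0.40 lower (Timd4) in the PZH group, and control mouse 4 at −0.86 is the lowest point on the left.

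Beside the markers, genes of other macrophage states and of the signals around Kupffer cells were counted, from lists written by name. Of 14 general macrophage genes 0 were called higher by limma (2 at an unadjusted p under 0.05) and 4 lower (Itgb2, Cd68, Fcer1g and Fcgr1), with a median of 0.04, and under median-ratio scaling 4 were higher and 0 lower, so no direction can be given for that list. Its summed FPKM were 618 to 907 under PZH and 570 to 838 in the control mice, and the sums of the 10 Kupffer cell markers 198 to 293 and 178 to 243. The lysosomal Cd68 stood at 21.9 ± 3.17 against 27.5 ± 2.89 FPKM, and C1qa at 54.1 ± 7.28 against 50.3 ± 6.75. Lyz2 was 235 ± 63.7 against 190 ± 44.6 FPKM and did not pass the test.

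Among 14 markers of monocytes and recruited macrophages, 2 were called higher and 8 lower, with a median of −0.54 beside −0.11 for all genes. The 8 that fell held the monocyte chemokine Ccl2 (−2.30, 0.736 ± 0.330 against 8.08 ± 4.37 FPKM), with Chil3 (−1.62) and Lgals3 (−1.29). The log2 fold change of Ccl2 was close to that of Marco, but this scale understates the change of low genes. As a ratio of mean FPKM, Ccl2 fell by more than Marco. The 2 genes of the list that rose were Gpnmb (1.17) and the lipid receptor Trem2 (0.64). Summed FPKM of this list were 330 to 507 under PZH and 516 to 681 in the control mice. The ranges did not overlap, but their nearest mice stood close together, and the sums were of FPKM as deposited, without rescaling. Fn1 (184 ± 44.0 against 248 ± 28.8 FPKM) and Spp1 (94.1 ± 26.9 against 121 ± 22.3) were the most abundant genes of the list and weigh most in its sum. Of 12 other scavenger receptors 2 were called higher, Mrc1 (0.35) and Scarb2 (0.16), and 4 lower, against 3 and 3 under median-ratio scaling. The call of Scarb2 was lost under 5 of the other settings, equal FPKM sums among them, and when most single mice were left out. The latter held Msr1 (−0.69), a class A scavenger receptor like Marco, with 11.7 ± 2.19 against 19.3 ± 2.22 FPKM, as well as Olr1 (−1.0) and Scara5 (−0.86), and the call of Scara5 was lost under median-ratio scaling, with the replicate block and with its main transcript.

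Of 12 transcription factors of Kupffer cells 2 rose, with Maf (0.31) among them, which was not called when the FPKM sums were set equal, and 5 fell, led by Id1 (−1.84, 11.2 ± 3.54 against 42.3 ± 8.95 FPKM) and Id3 (−1.11). Both Id genes are made in other liver cells too. Of 15 niche ligands and receptors 1 rose, Gdf2 (0.63), the bone morphogenetic protein of stellate cells, and 9 fell, Il34, Csf1 and Notch1 (−0.44) among them. For the ligands and partners of single members the limma calls were 0 higher and 9 lower of 14 genes of haem and iron handling, 0 higher and 5 lower of 10 genes of complement C3 and its receptors (0 higher in both also at an unadjusted p under 0.05), 1 higher and 4 lower of 13 genes of dead-cell uptake, and 5 higher and 1 lower of 9 folate genes. Under median-ratio scaling the complement list had 1 higher and 0 lower, the dead-cell list 4 and 3, the haem and iron list 1 and 8 and the folate list 5 and 1, so no direction can be given for the complement and dead-cell lists. With that scaling the transcription factors had 3 higher and 3 lower, the niche genes 1 and 5, and the monocyte and recruited macrophage genes 2 and 5. C3, the source of the fragments that Vsig4 binds, fell by 0.48 in the limma fit (1774 ± 276 against 2484 ± 515 FPKM), a call that was lost under median-ratio scaling. The dead-cell bridging ligand Gas6 fell by 1.0, and Shmt1 of the folate cycle rose by 0.94, whereas Timd4 and Folr2 in the same pathways were not called.

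**Figure D5:**
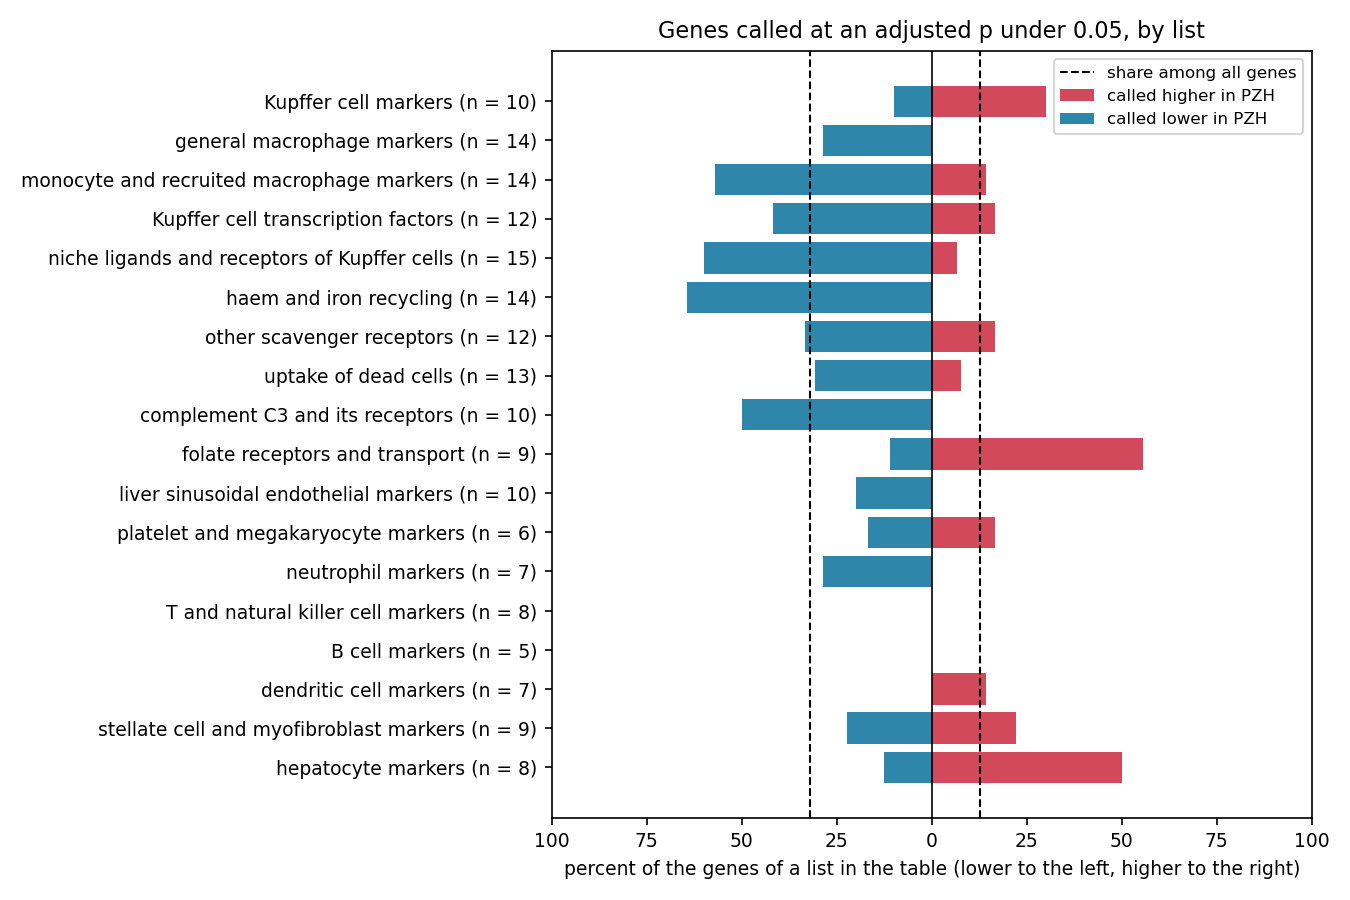
Share of the genes of each list called higher (red, to the right) or lower (blue, to the left) in the PZH group at an adjusted p under 0.05, in percent of the genes of that list in the table. Dashed lines give the shares among all genes, 12.7% higher and 32.1% lower, and the Kupffer cell markers (top) have 3 of 10 higher and 1 of 10 lower.

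Markers of other liver cells were set beside the members. Hepatocyte genes (8 in the table) had 4 called higher and 1 lower. Their summed FPKM were 44215 to 60900 under PZH against 27259 to 40607 in controls, without overlap. Of 10 endothelial genes of the sinusoids 2 were called lower by limma, Lyve1 (−0.62) and Pecam1 (−0.29), with sums of 128 to 166 and 143 to 161 FPKM. Under median-ratio scaling 2 of these genes were higher and 1 lower, and Pecam1 was not called. Stellate cell and myofibroblast genes had 2 higher and 2 lower of 9, with Reln (0.98) and Col3a1 (0.62) against Acta2 (−0.92) and Des (−0.47). The same scaling gave 4 higher and 2 lower for this list, and 6 and 1 for the hepatocyte genes. Of 7 neutrophil genes 2 were lower, Csf3r and Cxcr2, and Ly6g was listed at 0 in 2 PZH mice. T and natural killer cell genes (8), B cell genes (5) and dendritic cell genes (7) gave 1 call in all, Cd209a higher, and the highest of their sums in any mouse was 14.0 FPKM. After median-ratio scaling the B cell genes had 2 higher and 0 lower, the dendritic cell genes 2 and 0, and the T and natural killer cell genes 0 and 0. Cd79b and Cd79a, the most abundant of the B cell genes, and Nkg7 and Ncr1, those of the T and natural killer cell genes, had group means of at most 2.78 FPKM. The part of the other cell types in the member values was not tested.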

How the data were processed

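RNA of 12 livers (6 PZH, 6 control, as GEO's labels group them) was sequenced from rRNA-depleted strand-specific libraries. Per the labels and the methods of the study, the authors trimmed reads with Trimmomatic, mapped them to GRCm38 with HISAT2 and quantified Ensembl transcripts with StringTie, and deposited FPKM per transcript. Of 29883 transcripts 29876 were matched to genes of GENCODE M21 and summed over 14188 gene names. Low values were not whole multiples of a common unit in any mouse (best share 7.07 to 8.80%, with 4% from spacing alone, tolerance 0.02 fragments), so reads were not recovered and depth and counting error are unknown. FPKM of spliced transcripts divide reads between isoforms by estimate, and a rise of albumin lowers all other values.

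log2(FPKM + 1) was fitted over all genes, and separately over all transcripts, with limma 3.58.1 (R 4.3.3), without filter or covariate, with Benjamini-Hochberg adjustment. Intervals are 95% intervals of that fit. Marker differences within a mouse were tested with two-sided exact permutation tests over 924 labellings. With the replicate block they were tested by exact sign flips of the differences between mice of the same number. The fits were tested on simulated data. Alternatives were the pseudocount (0.1), a mean FPKM of at least 1, 2 scalings, limma's trend and robust options, the call of the study, the main transcript of each gene, a replicate block and each mouse left out. Tables and plots were made with Python 3.11.15, pandas 2.3.3, numpy 2.4.6 and matplotlib 3.10.9.

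The members and gene lists were chosen with earlier results of these data known. Named beside the members were up to 3 genes called higher and 3 called lower with the largest change in each list (or the 2 most abundant where none was called), ligands and partners of the members and general macrophage genes whatever their values (Csf1, Il34, C3, Hp, Hmox1, Cd68, Lyz2, C1qa), and the 10 genes most like them. Fcgr1, Ly6g, Gp1bb, Fn1 and Spp1 are named beyond that rule, after their values were seen. Some genes that the rule names are not reported here. The lncRNA table, also FPKM, was not used here.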

Additional observations from a re-analysis of the deposited data

Results flagged for a closer look

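Within the 24 groups of 6 values tested (10 genes and 2 marker differences in each group of mice), 3 held a mouse whose gap to the nearest other mouse exceeded Dixon's critical value for 6 values, and chance flags about 1 in 20 groups. Cd5l in PZH mouse 3 was 103 FPKM, with the other PZH mice between 65.4 and 76.9. Cd163 in PZH mouse 1 was 1.24 FPKM, with the others between 2.40 and 2.97. Clec4f minus Adgre1 in control mouse 4 was −0.86, with the other control mice between 0.30 and 0.71. In that mouse Clec4f was the lowest and Adgre1 the highest of the control group.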

How the results depend on the processing

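Of the members, Marco, Vsig4 and Csf1r kept direction and adjusted-p call under the 20 alternatives that keep that rule, and of these genes Marco alone passed the call of the study. The cause of the following changes was not tested. The count of member genes called higher was 6 under median-ratio scaling and 0 with the call of the study, against 3. Member transcripts called higher were 1 with a pseudocount of 0.1 or equal FPKM sums, 4 under median-ratio scaling and 1 to 3 with a mouse left out (1 without control mouse 1), against 2, and those called lower were 1 with a mean FPKM of at least 1, where the short Marco transcript is not tested. Genes of the other lists called were 40 higher and 34 lower under median-ratio scaling, against 21 and 55, and 11 of the 51 other named genes that were called lost the call. Timd4 minus Csf1r was −0.58 and Clec4f minus Csf1r 0.21. Leaving out a mouse gave 0.16 to 0.48 for Clec4f minus Adgre1 and −0.50 to −0.29 for Timd4 minus Adgre1. Signs turned only for changes that were not called: Cd5l (−0.018 to 0.11 with a mouse left out), Folr2 (0.10 under median-ratio scaling, −0.13 to 0.056 with a mouse left out) and Nkg7 (−0.0098 with equal sums, −0.070 to 0.13 with a mouse left out).

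Mice with the same number did not deviate together (correlations −0.0784 to 0.0929, none over 0.1 and no mouse most like its own number), so they share only a number. With the replicate block 3 member genes were called higher and 1 lower, as without it, and calls over all genes were 1694 higher and 4288 lower. The marker differences were 0.39 and −0.40 (exact sign-flip test of the differences between mice of the same number, p = 0.344 and 0.188).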

Other observations

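Genes of the same lists that the text has not described moved by larger amounts than most members. In the folate cycle Shmt2 rose by 0.74 on the log2 scale (53.7 ± 9.04 against 31.7 ± 5.90 FPKM) and Fpgs by 0.57. The iron transporter gene Slc11a2 fell from 20.1 ± 3.87 to 10.1 ± 0.322 FPKM, a change of −0.91. Among the genes of dead-cell uptake Elmo1 (−0.68) and Dock1 (−0.46, not called under median-ratio scaling) fell and Gulp1 rose (0.29, at a mean under 1 FPKM). The urea cycle genes Ass1 (1.0) and Cps1 (0.85) rose and the fibrinogen gene Fgb fell (−1.17), all by limma at an adjusted p under 0.05.

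Egr1, an immediate early transcription factor that was among the genes most like the markers within groups, itself differed between the groups, at 2.72 ± 2.09 FPKM under PZH and 14.0 ± 4.03 in the control group (log2 fold change −2.10, limma adjusted p = 8.85e-05). Within the PZH group its median was 1.95 and its highest value 6.92, so the upper end stood far from the middle. Its correlation with the marker mean was 0.97 there and 0.43 in the control group, over 6 mice each. Egr1 was picked for its correlation with the markers in these same mice, so these values are a description and not a test.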
